A study of Apis mellifera with 24 samples.

Results

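The genes described here were those whose antisense piRNA counts took a larger share of the gene total in honey bee eggs than in any other reproductive tissue sampled. piRNAs are small RNAs of the germline that are loaded into Piwi proteins and guide them to transcripts of complementary sequence, above all those of transposable elements (TEs). An RNA that is antisense to a gene can pair with the transcript of that gene, whereas a sense RNA has the sequence of the transcript itself. In the fruit fly, piRNAs made in the ovary are loaded into the egg, so that an egg holds piRNAs of its mother.

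Members were chosen from the antisense gene counts by dividing each tissue column by its sum and keeping genes with their largest share in eggs and at least 20 egg counts. A list of 30 gene models was set aside, of which 3 met the rule. The remaining 40 genes, of 15313 in the table and 395 with at least 20 antisense egg counts, were all kept, because the limit of 150 genes was not reached. Over the 395 genes, 10.9% met the rule before any was set aside. Antisense shares and the ratios made from them chose the members, so they are given as a description with no test, and nothing is read from their direction.

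Small RNA libraries of Apis mellifera were made from 5 tissues. The labels list 8 libraries of eggs under 24 h old, with 2 each of fertilised and unfertilised eggs of mated queens and 2 each of eggs that virgin queens laid in worker cells and in drone cells. They also list 3 libraries each of ovaries and spermathecae (the sperm storage organ of a queen) of adult laying queens, 2 of semen of adult drones, and 8 of drone testes, 3 at 24 h, 2 at 72 h and 3 at 144 h after pupation. By the study's methods, virgin queens were made to lay with carbon dioxide, eggs were pooled for each sample, and testes came from a single colony.

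Each table held a single column per tissue, so every value below is the authors' pooled value for a tissue, without replicates, SD or p-value, and differences have no replicate check. Which libraries entered a column was not given in the sources used here. The flow cells named in the labels differed between eggs and the ovary, testis and spermatheca libraries, so tissue and sequencing run cannot be told apart. Antisense gene counts summed to 5045727 in eggs, 3268356 in ovaries, 553655 in spermatheca, 392409 in testes and 32551 in semen. A single gene that was set aside took 40.2% of the egg sum. Small RNA counts do not measure mRNA, so the tissues were not checked against marker genes. Shares are given as counts per 1000000 antisense gene counts of the tissue (CPM). The 95% intervals of shares (Wilson) and of ratios (exact, conditional on the summed count) cover counting error only, because the columns hold no replicates. Copies made by PCR were not told apart by molecular identifiers, so the intervals can be too narrow even for counting error. They also take each value as a count of independent reads. Whether columns are sums or means, and how reads with several matches were counted, was not given in the sources used here.

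Together the 40 genes held 1.84% of antisense gene counts in eggs, 1.10% in ovaries, 0.655% in spermatheca, 0.264% in testes and 0.0307% in semen. This sum rested on few genes. GB48900 alone held 50.7% of the members' egg counts, and the leading 10 genes held 88.9%. The median member had 268 antisense counts in eggs, 45.0 in ovaries, 7.5 in spermatheca, 1 in testes and 0 in semen.

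**Figure D1:**
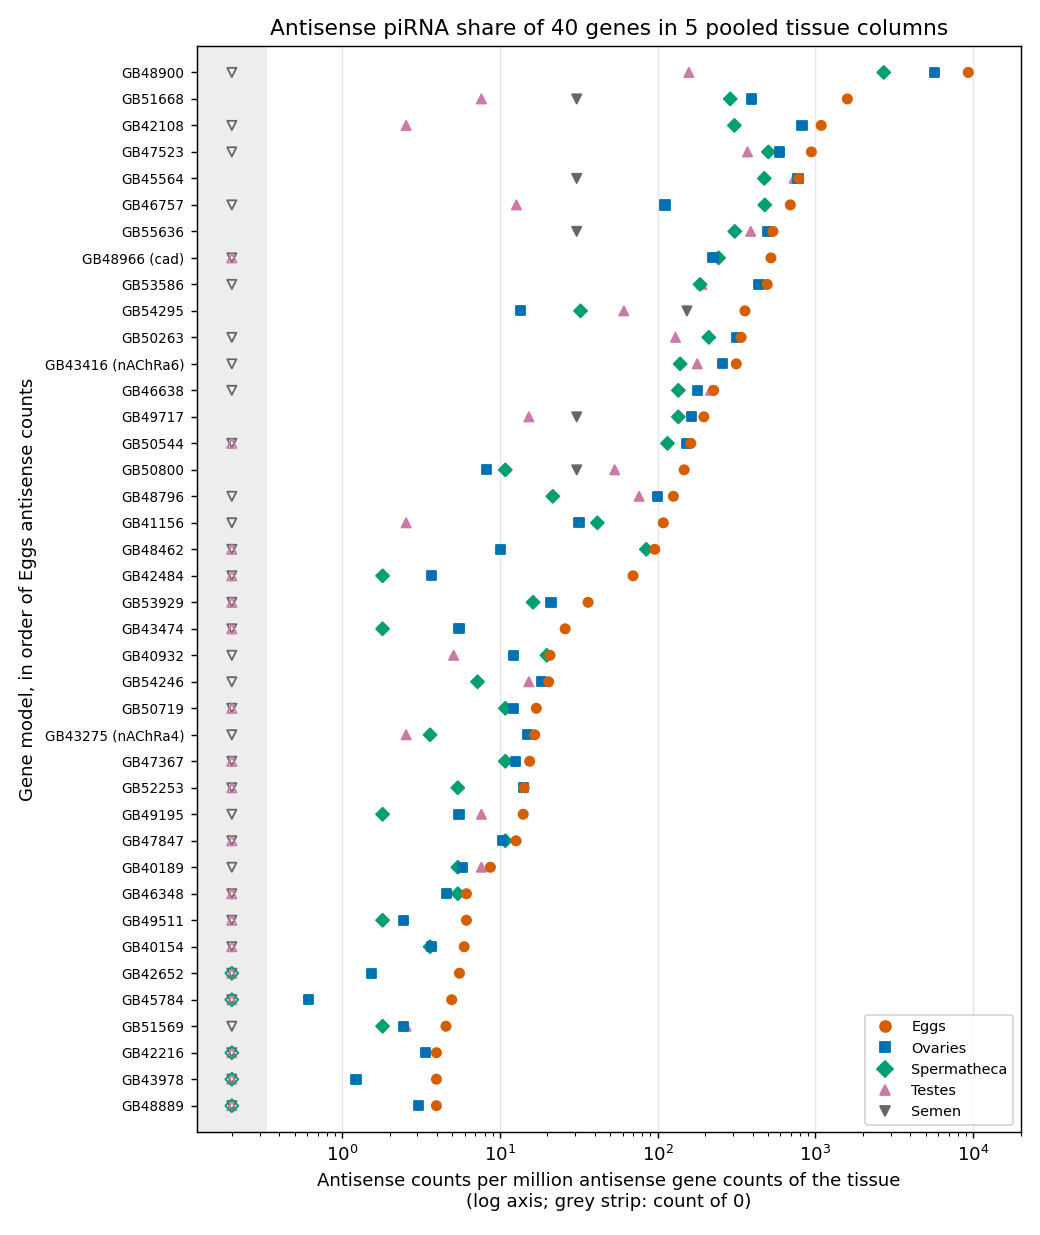
Antisense CPM (log axis) of each of the 40 genes, with a symbol for each pooled tissue column and counts of 0 in the grey strip. GB48900 stands at 9327 CPM in eggs, and 34 genes were at 0 in semen.

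The shallow columns limit what an egg share can be compared with. In semen, 1 count equals 30.7 CPM and a count of 0 allows up to 92.2 CPM (3 counts). A count of 0 was found in semen for 34 of the 40 genes, and for 21 of these the egg share was itself under what a 0 in semen allows, and a difference could not be detected at this depth. In testes 18 genes were at 0, with 8 under the limit of 7.65 CPM. In spermatheca 5 were at 0, with 4 under the limit of 5.42 CPM.

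Ovaries were the tissue with the next highest share for 27 genes, spermatheca for 7, testes for 5 and semen for 1. For many genes the lead of eggs was small. The egg share was under 1.5-fold over that of the next tissue for 23 of 40 genes and under 1.2-fold for 16, and the counting interval of the ratio lay above 1 for 20. Over the 395 genes with at least 20 egg counts this interval lay above 1 for 5.82%, and the rule chose on this ratio. The comparisons of eggs with the other tissues share the egg column and are not independent. Against ovaries the median ratio of the members was 1.55, beside 0.884 over all 395 genes with at least 20 egg counts, and 6 members were over 5-fold, where 1.25% of 1121 genes were (those with 5 or more counts in eggs or ovaries). Against spermatheca 5 members were over 5-fold (0.366% of genes), against testes 11 (2.18%) and against semen 9 (4.07%), with counts under 3 in the other tissue set to 3.

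The choice of scale mattered for which genes were members. When columns were scaled instead by the summed counts of all 4 tables (genes and TEs, both strands), 19 of the 40 genes kept their highest value in eggs and 21 did not. Among the 21 were GB46757, GB48462, the nAChRa6 gene, GB50800, GB47523, GB53586 and GB55636, so their place in the set rests on the scale. With edgeR's TMM sizes, DESeq2's size factors or unscaled counts, all 40 remained highest in eggs, but so did many other genes, and 31 of the 40 were then among the 150 with most egg counts. The TMM sizes raised the median egg-to-ovary ratio of the 395 genes by 0.55 on the log2 scale and that of eggs over testes by 4.09.

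**Figure D2:**
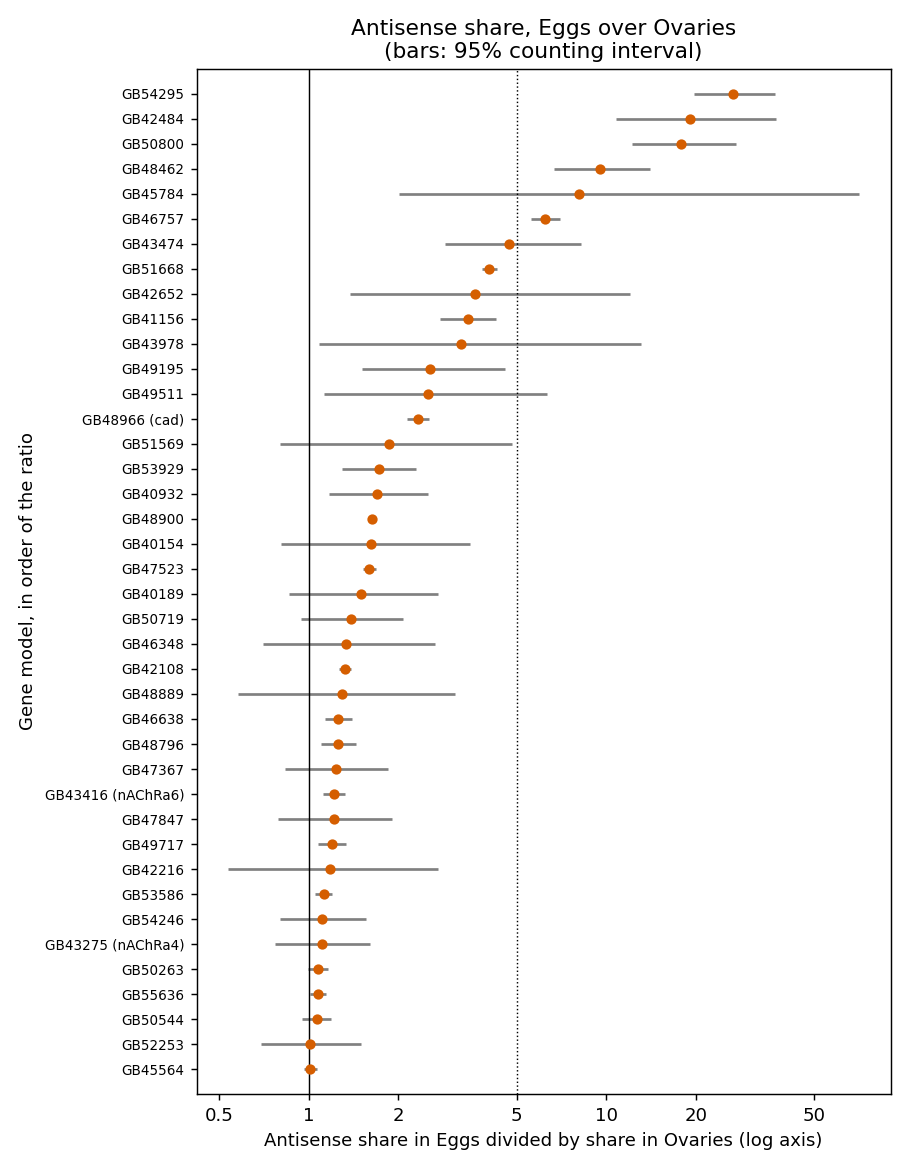
Ratio of the antisense share in eggs to that in ovaries (log axis) for each of the 40 genes, with 95% counting intervals as bars, a solid line at 1 and a dotted line at 5. Ratios run from 1.01 for GB45564 to 26.6 for GB54295, and the interval lies above 1 for 25 genes, as for 19.5% of the 395 genes with at least 20 egg counts.

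GB48900, a gene model of 3208 bases on the unplaced scaffold GroupUn65 (bases 51935 to 55142, + strand, Amel4.5), had the most antisense egg counts of the set. Its antisense share was 9327 CPM in eggs, 5719 in ovaries, 2718 in spermatheca, 158 in testes and 0 in semen. The female columns were thus high, testes were far lower, and the egg share was 1.63-fold that of ovaries (95% interval 1.60 to 1.66). Sense counts were nearly absent, with 38 in eggs beside 47061 antisense counts, so that 99.9% of its egg counts were antisense. TEs wholly inside the model held few counts, the larger being an incomplete DNA transposon of 106 bases with 157 egg counts on the antisense strand. Its egg-to-ovary ratio was 0.716 (0.567 to 0.905), under 1 where that of the gene was above it. FAMAR1, a TE annotation of 19 blocks on 16 sequences, also overlapped the model and had 2091 egg counts on the antisense strand.

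GB51668 (LOC412161), on chromosome 8 (bases 13105894 to 13112077, - strand), had an antisense share of 1597 CPM in eggs, 395 in ovaries, 289 in spermatheca, 7.65 in testes and 30.7 in semen. The semen value is 1 count and the testis value 3. The egg share was 4.04-fold the ovary share (3.81 to 4.29). Its antisense reads lay almost wholly on a pair of adjoining TEs of the LARD class (large retrotransposon derivatives, which lack coding capacity). The 400-base element at 13106693 to 13107092 matched 92.1% of the gene's antisense egg counts, and the 570-base element at 13107115 to 13107684 matched 7.69%. Counted with the same scale, the first of these was 4.37-fold higher in eggs than ovaries (4.10 to 4.66) and the other 2.40-fold (2.02 to 2.87).

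Several of the genes with high antisense egg counts were short models that lay within TEs. GB47523, of 216 bases, lay wholly within an incomplete DNA transposon and had 945 CPM in eggs, 591 in ovaries, 504 in spermatheca, 372 in testes and 0 in semen. It had the most antisense egg counts per kb of gene, 22079, followed by GB48900 with 14670 and by GB53586, of 246 bases, with 10171. GB53586 had 496 CPM in eggs, 440 in ovaries, 186 in spermatheca, 191 in testes and 0 in semen. GB55636, of 792 bases, had 539, 502, 309, 390 and 30.7 CPM in the same tissues, the semen value being 1 count. The egg-to-ovary ratios of these 3 models were 1.60, 1.13 and 1.07.

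GB42108, of 1832 bases on GroupUn51, overlapped Gypsy elements, which are retrotransposons with long terminal repeats. Its antisense share was 1091 CPM in eggs, 824 in ovaries, 307 in spermatheca, 2.55 in testes and 0 in semen. Most of its counts were sense, with 17248 sense counts in eggs beside 5503 antisense, as in GB53586, with 10829 beside 2502. An element of the family Gypsy-15_SI-I inside the model held 2713 of the egg counts antisense to the gene and 13821 in its sense.

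GB45564 (LOC100578680) and GB46638 (LOC410291) lay at the edge of the rule. GB45564 had 785 CPM in eggs, 776 in ovaries, 475 in spermatheca, 734 in testes and 30.7 in semen, an egg-to-ovary ratio of 1.01 with an interval of 0.962 to 1.06. An incomplete DNA transposon of 1168 bases inside the gene matched 99.4% of its egg counts. GB46638 had 227 CPM in eggs, 180 in ovaries, 135 in spermatheca, 217 in testes and 0 in semen, a ratio of 1.05 over testes (0.841 to 1.32). Neither was distinguishable from the next tissue by counting error. GB50544, GB40932 and GB52253 were as near, at 1.06-fold, 1.05-fold and 1.01-fold over the next tissue. On the other side of the rule, the egg share of GB54406 was 0.988 of its ovary share and that of GB55127 0.988 of its spermatheca share. The minimum of 20 egg counts fell between GB42216, GB48889 and GB43978, with 20 each, and GB48497, with 19.

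The 3 members with the largest egg-to-ovary ratios held TEs with many of the same antisense counts inside the gene. GB54295 (LOC724333), a gene of 311422 bases on chromosome 10, had 358 CPM in eggs, 13.5 in ovaries, 32.5 in spermatheca, 61.2 in testes and 154 in semen. Ovaries were the lowest tissue, 26.6-fold under eggs (19.7 to 36.7), while semen, with 5 counts, was the next highest, and the ratio to semen of 2.33 had an interval of 0.997 to 7.19. Within it, a TRIM element (a small retrotransposon derivative with terminal repeats) at 8126598 to 8130972 had 804 egg counts and 2 ovary counts antisense to the gene, a ratio of 260 (71.9 to 2154).

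GB42484 (LOC412808), on chromosome 7, had 353 antisense counts in eggs, 12 in ovaries, 1 in spermatheca and 0 in testes and semen. Its ratio of 19.1 over ovaries (10.8 to 37.2) was the largest of the set over a next tissue. All 353 egg counts were matched by a TRIM element of 709 bases at 9285836 to 9286544. GB50800 (LOC410888), on chromosome 2, had 744 antisense counts in eggs, 27 in ovaries, 6 in spermatheca, 21 in testes and 1 in semen, and was 17.9-fold higher in eggs than ovaries (12.2 to 27.3). Antisense counts were a small part of its reads, with 16997 sense counts in eggs and 15641 in ovaries. A TRIM element of 5996 bases inside GB50800 held 29.7% as many antisense egg counts as the gene and was 8.42-fold higher in eggs (5.14 to 14.7).

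GB43474 (LOC724736), GB45784 and GB42652 (LOC552421) were also among the 5 largest ratios over a next tissue, on fewer counts. GB43474 had 131 antisense counts in eggs, 18 in ovaries, 1 in spermatheca and 0 in testes and semen, a ratio of 4.71 over ovaries (2.87 to 8.20). GB45784, a model of 129 bases within a TE, had 25 counts in eggs, 2 in ovaries and 0 elsewhere, a ratio of 8.10 with an interval of 2.02 to 70.5. The 588-base TE around GB45784 went the other way, with 89 counts in eggs and 218 in ovaries on the same strand. GB42652 had 28 in eggs, 5 in ovaries and 0 elsewhere, a ratio of 3.63 (1.38 to 12.0). The wide intervals show how little 2 or 5 ovary counts fix these ratios.

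The sense counts were not used by the rule and give a second view of the same genes. Of the 40 genes, 25 had at least 20 sense counts in eggs, and 3 of these had their highest sense share in eggs too: GB46757, cad and GB55636. Over all 1294 genes with at least 20 sense egg counts, 4.1% did. The median sense ratio of eggs to ovaries was 0.837 over the 25 genes and 0.909 over the 1294. Sense shares were higher in eggs than ovaries for 9 of 25 members and for 546 of 1294 genes, and over 5-fold higher for 2 members, GB46757 and cad, where 0.392% of 4342 genes with 5 or more sense counts in either tissue were. The counting interval of the sense ratio lay above 1 for 5 of the 25 members (20%) and under 1 for 11 (44%), against 11.7% and 28.1% of the 1294 genes. For 8 members the antisense interval lay above 1 while the sense interval lay under it, as for 2.01% of the 1294, a count to which the rule contributes. When the leading gene of each column was left out of the sums, 6 of 25 members and 6.65% of all genes were highest in eggs. With TMM sizes these were 13 of 25 and 49.7%.

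**Figure D3:**
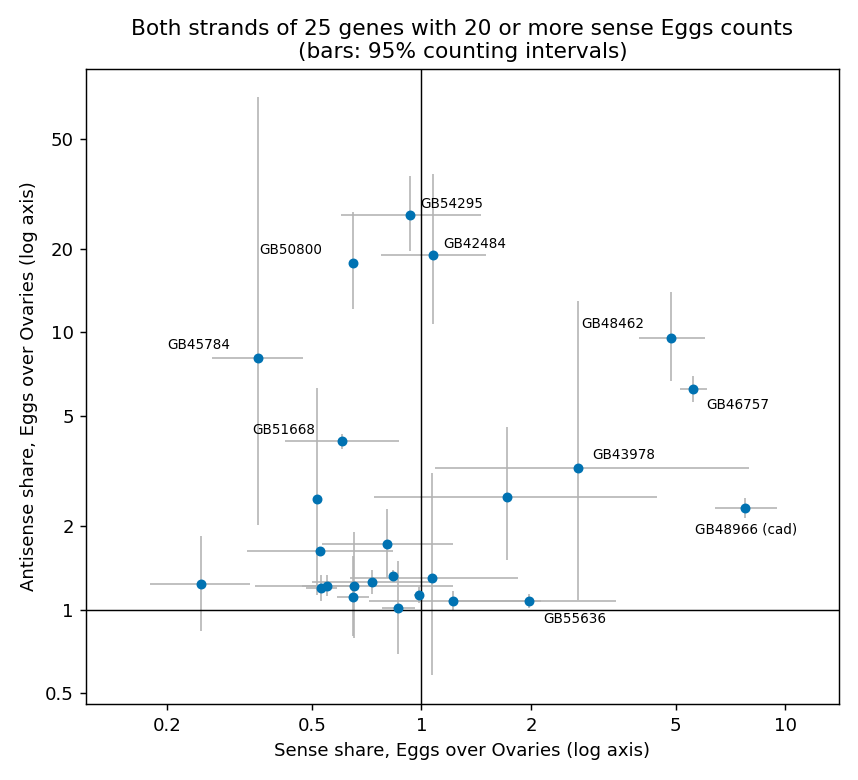
Ratio of the egg share to the ovary share for sense counts (horizontal, log axis) and antisense counts (vertical, log axis) of the 25 genes with at least 20 sense egg counts, with 95% counting intervals. GB46757, GB48462 and cad lie to the right at sense ratios of 5.59, 4.85 and 7.76, whereas GB54295, GB42484 and GB50800 have high antisense ratios and sense ratios between 0.649 and 1.07.

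GB46757, GB48966 (cad) and GB48462 had the highest sense ratios of the 25 genes, and no annotated TE held egg counts antisense to them. GB43978 (LOC552468) shared both traits on few counts, with 20 antisense counts in eggs and 4 in ovaries (ratio 3.24, 1.08 to 13.0) and 27 and 6 sense counts (2.69, 1.09 to 7.96). The traits did not always go together, since no annotated TE held egg counts antisense to GB49511, GB47847 or GB48889 either. Their sense ratios were 0.518 (0.502 to 0.534), 0.652 and 1.07, and the intervals of GB47847 and GB48889 included 1. For 13 of the 40 members, among them GB48900 and the nAChRa6 gene, overlapping TEs held at most 5% as many egg counts on the antisense strand. This count was not made for other genes, so it is not read as a trait of the set. cad encodes caudal, a homeobox transcription factor that patterns the posterior of insect embryos. It lies on chromosome 1 (bases 8929995 to 8945308, - strand). Its antisense share was 523 CPM in eggs, 225 in ovaries, 244 in spermatheca, and 0 in testes and semen. Testes and semen thus had no counts while the female columns did, but a 0 in semen allows up to 92.2 CPM. The antisense ratio was 2.33 over ovaries (2.14 to 2.53). Against the 3 counts that a 0 allows, eggs were at least 68.5-fold higher than testes and at least 5.68-fold higher than semen. Sense counts of cad were 1429 in eggs, 110 in ovaries, 194 in spermatheca and 0 in testes and semen. The sense share was 7.76-fold that of ovaries (6.39 to 9.51) but 1.16-fold that of spermatheca (1.002 to 1.36). Accordingly, 64.9% of cad counts were antisense in eggs (63.4 to 66.3) and 87.0% in ovaries (84.5 to 89.1), so the strand balance of cad was less antisense in eggs. The 3 TEs annotated inside cad held no antisense counts in eggs.

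GB46757 (LOC100578984), on chromosome 5 (bases 5250853 to 5267578, + strand), had 3506 antisense counts in eggs, 364 in ovaries, 265 in spermatheca, 5 in testes and 0 in semen. Its sense counts were 5815, 621, 407, 14 and 3 in the same tissues. Over ovaries the ratio was 6.24 for antisense (5.60 to 6.97) and 5.59 for sense (5.15 to 6.09). Against spermatheca the ratios were 1.45 (1.28 to 1.65) and 2.26 (2.04 to 2.50). The antisense percent was 37.6 in eggs and 36.95 in ovaries. On the scale of all 4 tables its antisense ratio to spermatheca was 0.993, so its place in the set rests on the scale.

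GB48462 (LOC724752), a gene of 4932 bases on chromosome 14 with no annotated TE, had 485 antisense counts in eggs, 33 in ovaries, 47 in spermatheca and 0 in testes and semen. Its sense counts were 845, 104, 202, 0 and 0. Over ovaries the antisense ratio was 9.52 (6.69 to 13.99) and the sense ratio 4.85 (3.95 to 6.01). Spermatheca was close behind eggs on the antisense strand, at a ratio of 1.13 (0.838 to 1.56), and ahead on the sense strand, at 0.661 (0.567 to 0.775). For GB46757 and GB48462 the ovary share was below the spermatheca share on both strands, and for cad on the sense strand. The antisense shares of cad were close, at 225 CPM in ovaries and 244 in spermatheca (135 counts), and no interval was computed for that pair.

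The fifth gene with a sense interval above 1 was GB55636, at 1.97 (1.18 to 3.43). GB41156 (LOC409565), on chromosome 8, had 549 antisense counts in eggs, 104 in ovaries, 23 in spermatheca, 1 in testes and 0 in semen, and no sense count in any tissue but 1 in testes. The 4 TEs annotated within it held no egg counts antisense to the gene. GB49511 (LOC410006) was the opposite, with 7654 sense counts in eggs and 8825 in ovaries beside 31 and 8 antisense counts. Its antisense counts were 0.403% of both strands in eggs.

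Summed over the 40 genes, antisense counts were 59.0% of both strands in eggs, 43.0% in ovaries, 26.1% in spermatheca, 32.7% in testes and 6.02% in semen. Over all other genes they were 47.9%, 50.1%, 39.2%, 41.2% and 21.7%. The member sum rested on GB48900 and GB42108, which led the antisense and the sense counts. Without both, it was 46.1% in eggs and, with the leading genes of ovaries left out, 35.0% there. The median over single genes with at least 20 counts was 80.6% for the 40 members in eggs and 2.44% for 1558 other genes, a difference to which the rule contributes, since it asks for antisense counts. The median over 37 members in ovaries was 61.6%.

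Between eggs and ovaries the antisense percent was higher in eggs for 30 of the 37 members with at least 20 counts in both, with intervals apart for 15. It was lower with intervals apart for 2. Over all 1172 genes with at least 20 counts in both, members included, the intervals were apart with eggs higher for 5.97% and with eggs lower for 4.86%. Among 1135 other genes it was higher in eggs for 371, equal for 330 and lower for 434. GB42484 was 76.9% antisense in eggs (72.8 to 80.5) and 16.9% in ovaries (9.94 to 27.3), GB43474 93.6% and 40%, and GB54295 97.0% and 55%. The antisense counts enter both the rule and this percent, so the direction is a description. In eggs 18 of the 40 genes were over 90% antisense and 7 were under 25%. These counts were not made for other genes, and the rule contributes to them, since it asks for antisense counts.

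**Figure D4:**
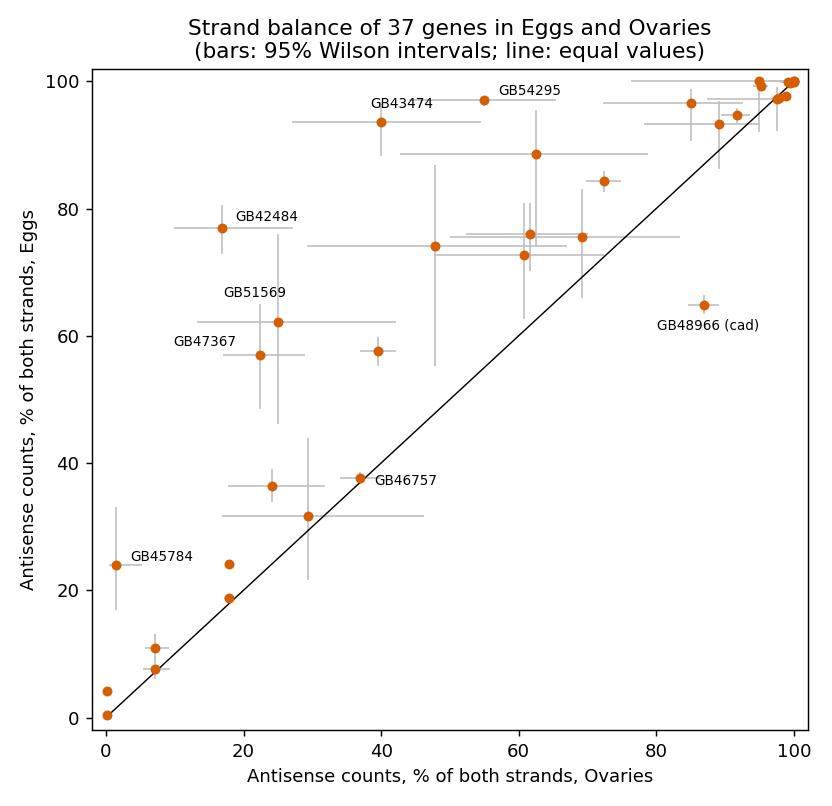
Antisense counts as a percent of both strands in ovaries (horizontal) and eggs (vertical) for the 37 genes with at least 20 counts in both, with 95% Wilson intervals and a line of equal values. Of the 37 genes 30 lie above the line, with GB42484 at 76.9% in eggs and 16.9% in ovaries, and cad lies below it.

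TEs were common in the set and in comparable genes. Of the 40 genes, 36 (90%) shared at least 1 base with an annotated TE, as did 305 of the 355 other genes with at least 20 antisense egg counts (85.9%). TEs covered at least 50% of the gene in 13 members (32.5%) and 64 of the 355 (18.0%). The members were shorter, with a median length of 13208 bases against 19715, though longer than the 2649 of all genes. Unplaced scaffolds held 10 members (25%) and 76 of the 355 (21.4%), beside 13.3% of all genes. No member lay within 50 kb of another, the closest pair being 254 kb apart (GB54246 and GB54295), and the set spread over 23 sequences.

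The genes fell into 4 kinds by what else was annotated where their antisense reads were counted. For 11 genes (27.5%), TEs wholly inside the gene held at least 80% as many egg counts on the antisense strand, as for 68 of the 355 other genes (19.2%). For 15 genes (37.5%), only TEs that reach beyond the gene did, as for 141 of the 355 (39.7%). For 4 genes (10%), a gene model on the other strand did, as for 57 (16.1%). For the remaining 10 (25%), none of these held 80%, as for 89 (25.1%), and these included GB48900, GB46757, cad, GB41156 and GB48462. These 4 kinds held 16.5%, 22.3%, 1.92% and 59.4% of the members' antisense egg counts, the last resting on GB48900. The median egg-to-ovary ratio was 1.72, 1.23, 1.26 and 3.33 in this order.

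Some TEs that reach beyond a gene are annotated as many blocks on many sequences, so that their counts cannot be placed within the member. Others have a single block, as for GB50719, GB47367 and GB45784, or 3 blocks on 1 sequence, as for GB47523. A MARIAM1 annotation of the Tc1-Mariner class (DNA transposons that move by excision) had 15 blocks on 12 sequences and overlapped GB55636, GB50263 and GB50544. A MARINER_AM annotation with 215 blocks on 82 sequences overlapped GB54295, GB49717, GB49195 and GB40189. In all, 10 members shared a TE annotation with another member. How reads with several matches were counted was not given in the sources used here, and counts of members that share a repeat may hold the same reads. GB50263 had 339 CPM in eggs and 315 in ovaries, GB49717 197 and 164, and GB50544 163 and 153. These 3 had egg-to-ovary ratios of 1.08, 1.197 and 1.06.

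GB43416 (nAChRa6) was a case of overlapping gene models. It encodes a subunit of the nicotinic acetylcholine receptor, a channel opened by the transmitter acetylcholine, and spans 241423 bases of chromosome 2 on the + strand. It had 316 antisense CPM in eggs, 259 in ovaries, 139 in spermatheca, 178 in testes and 0 in semen. The model GB43489, on the other strand within its span, had 1587 sense counts in eggs beside 1593 antisense counts of nAChRa6, and 821 beside 846 in ovaries. The span of GB43489 lies wholly within nAChRa6, so its 1587 sense counts lie where antisense counts of nAChRa6 were taken. Other members had a partner on the other strand with as many sense counts. GB43474 and GB40932 lie wholly within the spans of their partners, so their antisense counts lie where sense counts of the partner were taken. For GB47847 and GB48889, which share only part of their bases, it is not shown that these are the same reads. GB43474 and GB43425 had 131 antisense and 134 sense egg counts and share 15150 bases, and a TE inside GB43474 also matched all its antisense egg counts. GB40932 had 105 beside 142 for GB40906, which covers the 2566 bases of the member. GB47847 and GB47815 had 64 and 67 but share only 565 bases, and the egg-to-ovary ratio of the sense counts of GB47815 was 0.976 (0.652 to 1.48). GB48889 and GB48867 had 20 and 34 and share 1062 bases. Partners with at least 80% as many sense counts were found for 5 of the 40 members (12.5%) and 61 of the 355 other genes (17.2%).

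GB43275, 1 of 3 models that carry the symbol nAChRa4, had 84 antisense counts in eggs, 49 in ovaries, 2 in spermatheca, 1 in testes and 0 in semen, a ratio of 1.11 over ovaries (0.772 to 1.61). GB43271, which carries the same symbol, had 207 in eggs and 213 in ovaries and was not a member. Of 16 models named as nicotinic receptor subunits, 4 had at least 20 antisense egg counts and 2 were members, with a median of 0.50 counts over the 16. Of 9 models of embryo patterning genes, cad was the only 1 with at least 20, and the median was 0. eve, which encodes the homeobox factor even-skipped, had 114 sense and 0 antisense counts in eggs. Of 31 models of other transmitter receptors and channels, 3 had at least 20 and none was a member. Of the piRNA pathway genes aub and vas, aub had 37 antisense counts in eggs and 32 in ovaries and was not a member. Over all genes, 395 of 15313 had at least 20.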

How the data were processed

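Small RNA libraries of 5 honey bee tissues were made with the Illumina TruSeq small RNA kit. Per the study's methods, the authors mapped reads to the Amel4.5 genome in CLC Genomics, discarded reads that did not map, matched another known RNA or were not of piRNA length, and counted the rest with featureCounts on TEs and whole genes, introns and UTRs included. The submitters' processing notes name Bowtie 1.2.3. The deposited values are raw counts in sense and antisense tables, 1 column per tissue, over 15313 genes and 34760 TEs. A sum or mean of libraries, and the treatment of reads with several matches, were not given in the sources used here.

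Shares, ratios and intervals were computed with SciPy 1.17.1, numpy 2.4.6 and pandas 2.3.3 under Python 3.11.15. Alternatives used sizes from edgeR 4.0.16 and DESeq2 1.42.0 in R 4.3.3. The code of the selection step was run on simulated columns of equal depth with large set changes. That run does not cover unequal depth, small leads of eggs or low counts, so it says nothing about how reliable the membership is. A ratio to a count of 0 was computed against 3 counts and is a lower bound, and medians set counts under 3 to 3. A TE or gene model overlapped a member when they shared at least 1 base, and the strand of a TE was that of its blocks within the member. No test was run, since there are no replicate columns, and no sequence is shown.

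The members and gene lists were chosen with earlier results of these data known. Genes named are the 15 with most antisense egg counts, the 5 largest and 5 smallest ratios over the next tissue, those nearest the rule's limits, the 5 with most sense egg counts, the 5 with most antisense egg counts per kb, and list members. Genes named beyond these were chosen after their values were seen. Lists were read from RefSeq symbols (Amel_HAv3.1, names only, since descriptions were not used here). RefSeq gene IDs were paired with 27 members, of which 3 had a name and 24 a LOC symbol. Positions are those of the tables.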

Additional observations from a re-analysis of the deposited data

How the results depend on the processing

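No paired analysis was possible because the columns carry no replicate number, and no replicate could be left out for the same reason. In place of 40 genes, 205 met the rule with TMM sizes, 223 with DESeq2's size factors, 207 unscaled, 19 with the sum of all 4 tables and 499 with no minimum of egg counts, and the sum of all 4 tables kept 19 members. Without the leading gene of a table, the members' antisense share was 3.08% in eggs and 1.61% in ovaries, and their sense share 3.07% and 3.63%. Without the leading member of a strand these were 0.915% and 0.529% for antisense and 0.866% and 0.981% for sense. The antisense percent of both strands was 46.1% and 35.0% without the leading antisense and the leading sense member, and 41.6% and 26.6% without the leading antisense member alone, a setting chosen after seeing the data. Over members that overlap no other gene model, antisense shares were 1.79% and 1.06%, and the antisense percent 58.5% and 42.4%. The median egg-to-ovary ratio was 2.27 with TMM sizes, 2.34 with DESeq2's and 2.39 unscaled. Members with their highest sense share in eggs numbered 13 with TMM sizes, 13 with DESeq2's and 6 without leading genes, and the sum of all 4 tables was not tried for them. The median length of members was 0.670 of that of the other genes with at least 20 egg counts, and 1.996 of that of genes with at least 1. The other 27 alternative values of these results stayed within the counting interval or within 1.5 times. Egg-to-ovary ratios were instead held to a much narrower limit, which the sum of all 4 tables met, at 1.547 beside 1.550. Among the 27 were the members with a TE (31 for TEs with at least 1 egg count) and members near another (0 at each distance). Some of the 27 could not have moved and show no stability. Keeping the 100 members with most egg counts, or lowering the minimum of egg counts, kept all 40. The leading gene of a table was not a member, so leaving it out could not change the antisense percent. With 0 members within 10 kb of another, 0 within 1 kb was fixed. Of the alternative values for the other tissues and the background, 21 stayed within the counting interval or 1.5 times, some for the same reasons, and 34 moved. Ratios of eggs to these tissues were held to the narrower limit too. Depth limits comparisons with semen and testes most.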
